A study of Homo sapiens with 6 samples.

Results

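The genes described here were 26 long non-coding genes that carry small nucleolar RNAs, taken by name from the 56303 rows of a gene count table: every gene whose symbol is SNHG and a number (small nucleolar RNA host gene), together with GAS5, ZFAS1, DANCR and EPB41L4A-AS1. CYTOR was also sought and is not a row under that name. The libraries came from AGS, an established human gastric adenocarcinoma line grown in culture. The silenced libraries, called siSRSF2 here and siSRSF in the sample titles, were 3 libraries of AGS cells in which the splicing factor SRSF2 was silenced with a transfected siRNA, set against 3 libraries of AGS cells labelled WT. The labels give neither the time after transfection nor whether WT cells received a control siRNA, and do not say whether the replicates were separate cultures, so that the p-values measure the spread between these libraries, which may be technical.

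Small nucleolar RNAs (snoRNAs) guide chemical marks onto ribosomal and spliceosomal RNA: box C/D snoRNAs direct 2′-O-methylation, box H/ACA snoRNAs direct pseudouridylation, and the related scaRNAs act in Cajal bodies. In human cells most are cut out of the introns of a host transcript as it is spliced. Many non-coding hosts have little conserved exon sequence, start with a terminal oligopyrimidine tract as ribosomal protein mRNAs do, and yield spliced RNAs that nonsense-mediated decay removes, so that a host's RNA level and the level of its snoRNAs need not go together. A polyadenylated-RNA count is meant to read mainly the spliced exons, although some snoRNA rows inside introns were densely counted here.

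Libraries held 26610937 to 36651623 counts in the siSRSF2 group and 47518943 to 50021152 in WT. SRSF2 itself had 21.6, 21.8 and 24.9 CPM (counts scaled to library size, per 1000000) in the siSRSF2 libraries, against 44.5, 46.4 and 44.1 CPM in WT, a log2 fold change of -0.98 ± 0.06 (SE, n = 3 per group, adjusted p = 4.39e-13). Every siSRSF2 library lay below every WT library. Of the markers read to check the label, the epithelial keratins KRT8 (2776 ± 101 CPM in siSRSF2, 3236 ± 156 in WT) and KRT18 (1058 ± 73.0 and 1099 ± 53.5 CPM in the same order) were abundant, whereas EPCAM (5.80 and 5.01 CPM) and KRT19 (3.18 and 3.21 CPM) were low. The leukocyte marker PTPRC and the endothelial marker PECAM1 were below 1 CPM in both group means, and the fibroblast-linked DCN averaged 5.08 CPM in siSRSF2 and 1.01 CPM in WT.

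The label of host gene was checked against positions in the table. Of the 26 members, 25 held at least 1 row named as a snoRNA or scaRNA on their own strand, 172 names in all, and 125 of these lay in the long repeat clusters of SNHG14 and SNHG23. No row so named lay inside GAS5, where RefSeq places 11 snoRNAs. By these names 10 members carried box C/D snoRNAs, 10 carried box H/ACA snoRNAs, 2 carried both (SNHG12 and SNHG25), and 4 carried scaRNAs (SNHG10, SNHG20, SNHG21 and SNHG22). GAS5 was placed among the box C/D hosts from the RefSeq names, most of which are SNORD. These names include SNORA103, so by the rule used for the other members GAS5 would be a mixed host.

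The snoRNAs themselves show what these genes deliver. The sequences below, from GENCODE release 29 on GRCh38, are 4 whose own rows were lower in siSRSF2 and that lie at 1 place only. Capitals mark box C and box D in the SNORD RNAs, where the C/D proteins assemble, and the ACA box near the 3′ end of the SNORA RNAs.
SNORD12C (in ZFAS1, chr20:49278940-49279028, plus strand): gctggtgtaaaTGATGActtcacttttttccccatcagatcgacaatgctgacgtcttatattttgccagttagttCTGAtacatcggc
SNORD50B (in SNHG5, chr6:85677589-85677658, minus strand): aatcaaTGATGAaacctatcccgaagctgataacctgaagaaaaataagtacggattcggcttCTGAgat
SNORA61 (in SNHG12, chr1:28579764-28579893, minus strand): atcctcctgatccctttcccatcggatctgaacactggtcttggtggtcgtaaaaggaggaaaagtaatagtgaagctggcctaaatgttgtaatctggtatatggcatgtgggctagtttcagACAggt
SNORA17A (in SNHG7, chr9:136726747-136726879, minus strand): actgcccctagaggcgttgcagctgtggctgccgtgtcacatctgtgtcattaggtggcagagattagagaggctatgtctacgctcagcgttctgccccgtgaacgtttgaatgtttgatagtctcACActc

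The start of the transcript is another feature of such hosts. RefSeq start windows (GRCh38.p14) were matched by symbol for 21 members. The 6 shown here run from 45 bases before the RefSeq start through the first 25 bases of the transcript, for the strongest falls among well-counted members (DANCR and SNHG17), a pair with smaller falls (SNHG5 and ZFAS1) and a pair that rose (SNHG3 and SNHG19). Capitals mark TATAA, searched on the transcript strand between 45 and 16 bases before the start. They also mark CTTTT, a form that a terminal oligopyrimidine tract can take, searched on the transcript strand within 25 bases of the start.
DANCR (chr4:52712349-52712418, plus strand): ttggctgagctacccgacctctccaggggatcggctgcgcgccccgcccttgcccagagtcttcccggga
SNHG17 (chr20:38435304-38435373, minus strand): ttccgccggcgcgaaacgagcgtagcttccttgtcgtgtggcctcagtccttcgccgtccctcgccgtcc
SNHG5 (chr6:85678709-85678778, minus strand): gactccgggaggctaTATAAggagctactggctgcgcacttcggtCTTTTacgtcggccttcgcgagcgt
ZFAS1 (chr20:49278597-49278666, plus strand): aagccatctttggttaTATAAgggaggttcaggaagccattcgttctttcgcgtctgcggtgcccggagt
SNHG3 (chr1:28505898-28505967, plus strand): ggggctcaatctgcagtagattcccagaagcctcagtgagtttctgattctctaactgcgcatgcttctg
SNHG19 (chr16:2155334-2155403, minus strand): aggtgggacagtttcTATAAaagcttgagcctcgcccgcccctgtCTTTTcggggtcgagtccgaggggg

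CTTTT was found in 4 of the 21 member windows (SNHG5, SNHG16, SNHG19 and SNHG21) and in 5.77% of 35116 windows of all genes. This exact search is not a count of terminal oligopyrimidine tracts. It misses the ctttc at the RefSeq start of ZFAS1, and it found no CTTTT for GAS5. TATAA, whose search was added after these sequences had been seen, was found in 6 of 21 (SNHG5, SNHG7, SNHG8, SNHG12, SNHG19 and ZFAS1) and in 4.09% of all windows. The E-box CACGTG was in 1 member window (SNHG7), against 7.26% of all windows, and CCGGAAG, read on both strands, was in 1 (SNHG20), against 10.3%. SNHG19, which rose, and SNHG5, which fell, held both CTTTT and TATAA. The start of the RefSeq transcript is not always the start of the row counted. For members such as SNHG14, GAS5, SNHG3 and DANCR it lies outside the span of the row.

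Across the family the RNA of most hosts was modestly lower after SRSF2 silencing; in bulk RNA, fewer cells with an RNA and less of it per cell cannot be told apart. Each change is that of a row, which can hold reads of snoRNAs and neighbours that overlap the host's exons, as given below. Of the 26 members, 23 passed the filter on low counts. Among them 16 fell and 4 rose at an adjusted p of 0.05, and 3 did not pass. Among all 23689 genes tested 29% fell and 30.1% rose, so that the share of members that fell, 69.6%, stood above the background, and the share that rose, 17.4%, below it. The median log2 fold change of the tested members was -0.33, against 0.02 over all genes tested. The changes were small: DANCR fell by more than 2-fold, as 5.91% of all genes tested did, and no member rose by 2-fold, the highest log2 fold change in any setting run being 0.95 for SNHG19.

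**Figure D1:**
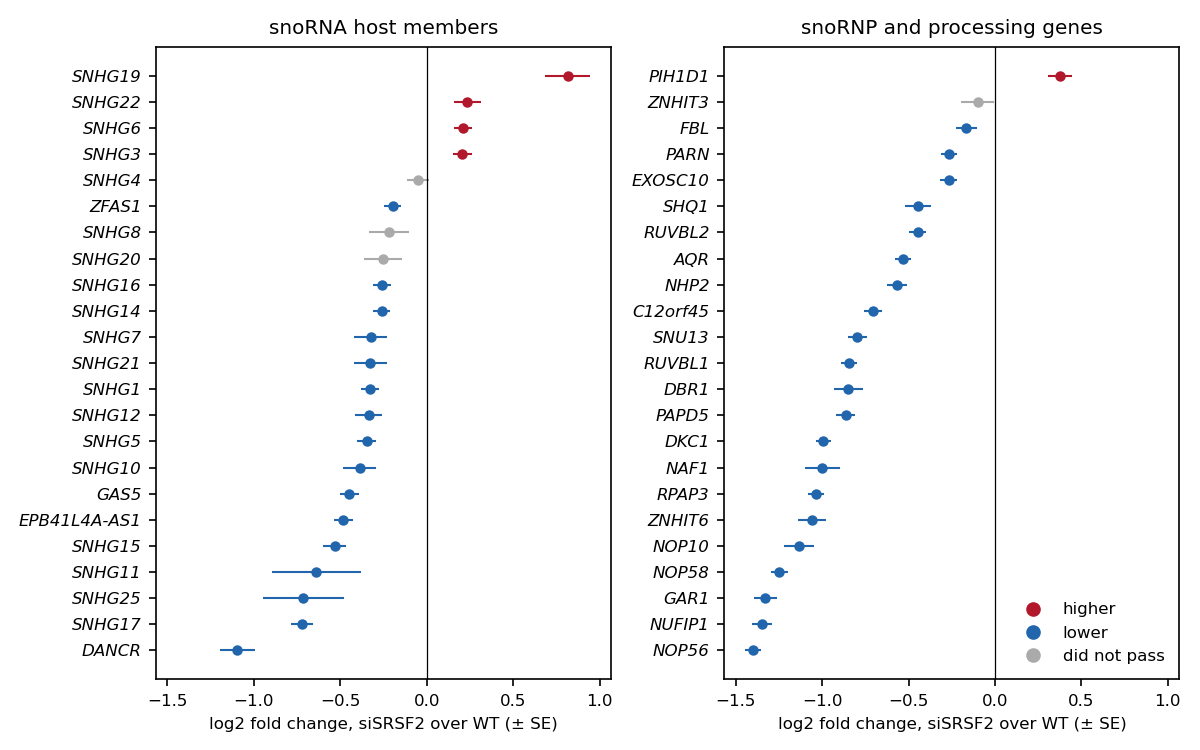
Log2 fold change (siSRSF2 over WT, point, with its SE as bar) of the 23 tested snoRNA host members, left, and of 23 genes for snoRNA-protein assembly and processing, right, coloured by call at an adjusted p of 0.05. DANCR at -1.10 and SNHG19 at 0.82 lie at the ends of the host family, while most hosts lie between -0.72 and -0.20; 21 of the 23 genes on the right were lower.

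Genes with more counts fell more often in these libraries, so the family was also set beside genes of similar level. Among genes with a mean of at least 5 CPM over all libraries, 14 of 21 members (66.7%) fell and 4 rose, against 46.8% and 30.8% of all 11587 genes at that level. Other long non-coding genes went the other way: of 1182 tested, 151 (12.8%) fell and 460 (38.9%) rose, with a median log2 fold change of 0.34. At 5 CPM or more, 26.2% of 305 other long non-coding genes fell and 44.3% rose. Scaled to the library totals in place of TMM factors, all fold changes shifted by 0.13 on the log2 scale, 12 members fell and 4 rose, and 23.2% of all genes fell and 36.1% rose.

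**Figure D2:**
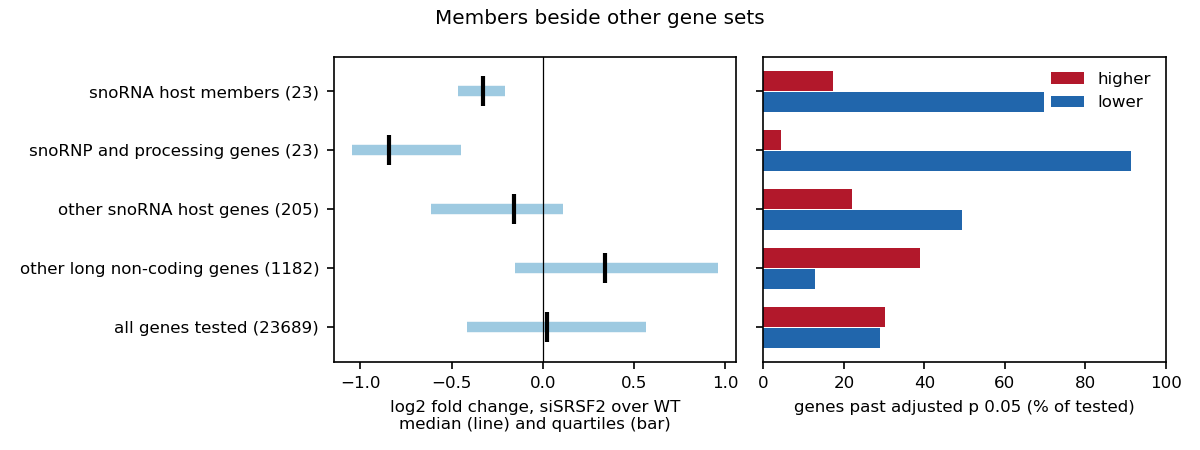
Left, median (line) and quartiles (bar) of the log2 fold change, siSRSF2 over WT, in 5 sets of genes, with the number tested in brackets; right, the percent of each set called higher or lower at an adjusted p of 0.05. The hosts sit below 0, with 69.6% lower, whereas the other long non-coding genes have a median of 0.34 and 38.9% higher.

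Among the box H/ACA hosts, 6 of 9 tested members fell, 1 rose and 2 did not pass. DANCR (chr4:52712404-52720351, host of SNORA26, first studied as an RNA that holds back differentiation) had 5.37, 6.10 and 6.06 CPM in siSRSF2, against 11.8, 12.2 and 13.6 CPM in WT. The groups were far apart, and the log2 fold change was -1.10 ± 0.10 (SE, adjusted p = 5.02e-10). SNHG17 (chr20:38420588-38435353), which carries the SNORA71 family in its introns, had 31.2, 38.3 and 32.0 CPM in siSRSF2, against 56.1, 56.3 and 55.2 CPM in WT. Its log2 fold change was -0.72 ± 0.07 (adjusted p = 4.86e-10), and the WT libraries differed among themselves by about 1 CPM.

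SNHG15 (chr7:44983023-44986961, host of SNORA9) had 17.3, 17.7 and 16.7 CPM in siSRSF2, against 25.1, 24.9 and 24.9 CPM in WT. The libraries of each group lay tightly together, and the log2 fold change was -0.53 ± 0.07 (adjusted p = 1.49e-07). EPB41L4A-AS1 (chr5:112160526-112164276, host of SNORA13) had 48.2, 45.1 and 42.0 CPM in siSRSF2, against 61.5, 61.6 and 65.6 CPM in WT, a log2 fold change of -0.48 ± 0.06 (adjusted p = 3.61e-08). SNHG7 (chr9:136721366-136728184, host of the SNORA17 pair) had 10.4, 10.98 and 11.2 CPM in siSRSF2, against 14.4, 11.7 and 14.7 CPM in WT. WT replicate 2 lay close to the siSRSF2 libraries without touching them, and the log2 fold change was -0.32 ± 0.10 (adjusted p = 0.00457; 0.0873 with library totals). SNORA17A overlaps an exon of SNHG7 and had 75, 106 and 98 counts in siSRSF2 and 209, 153 and 210 in WT. The SNHG7 row had 282, 423 and 389 counts in siSRSF2 and 688, 533 and 699 in WT. The part of SNORA17A reads in the fall of SNHG7 was not tested. SNHG11, at 0.89 ± 0.23 CPM in siSRSF2 and 1.41 ± 0.22 CPM in WT (SD, n = 3 each), also fell (adjusted p = 0.0365). That call was lost with library totals (0.0985), with DESeq2 (0.0667) and without siSRSF2 replicate 1 (0.139), siSRSF2 replicate 3 (0.0874) or WT replicate 3 (0.151).

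Of the 3 other tested box H/ACA hosts, 1 rose and 2 did not pass. SNHG3 (chr1:28505980-28510892) carries SNORA73A and SNORA73B, the U17 RNAs that act in ribosomal RNA cleavage. It had 93.0, 80.5 and 82.5 CPM in siSRSF2, against 75.1, 75.4 and 71.2 CPM in WT, a log2 fold change of 0.21 ± 0.05 (adjusted p = 0.00177). Every siSRSF2 library was above every WT library, with siSRSF2 replicate 1 highest. SNORA73A overlaps an exon of SNHG3 and had 450, 442 and 725 counts in siSRSF2 and 791, 812 and 686 in WT. The SNHG3 row had 2527, 3103 and 2859 counts in siSRSF2 and 3580, 3443 and 3377 in WT. RCC1, on the same strand, also shares exon bases with SNHG3, as given below. The part of such reads in the rise of SNHG3 was not tested. SNHG8 (chr4:118278709-118279823, host of SNORA24) had 29.3, 22.3 and 31.7 CPM in siSRSF2, against 30.8, 34.8 and 31.0 CPM in WT. These overlapped and the difference did not pass (log2 fold change -0.22 ± 0.12, adjusted p = 0.141), with siSRSF2 replicate 2 lowest. It passed without siSRSF2 replicate 3 (adjusted p = 0.005), with DESeq2 (0.0445) and with no filter on low counts (5.37e-05), whereas without siSRSF2 replicate 2 the log2 fold change was -0.08 (adjusted p = 0.35). SNORA24 overlaps an exon of SNHG8, and its row, which pools several places, had 529, 487 and 692 counts in siSRSF2 and 710, 801 and 691 in WT. The SNHG8 row had 797, 858 and 1097 counts in siSRSF2 and 1468, 1592 and 1470 in WT. Whether the host RNA changed apart from SNORA24 reads was not tested. SNHG4 (chr5:139274102-139283244, host of SNORA74A, the U19 RNA) had 25.3, 26.6 and 26.4 CPM in siSRSF2, against 26.8, 26.3 and 27.9 CPM in WT (log2 fold change -0.05 ± 0.06, adjusted p = 0.531). The SNHG4 row may include reads of MATR3, which covers 28.8% of its exon bases on the same strand, as given below. A p above the threshold does not show that SNHG8 and SNHG4 were unaltered.

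**Figure D3:**
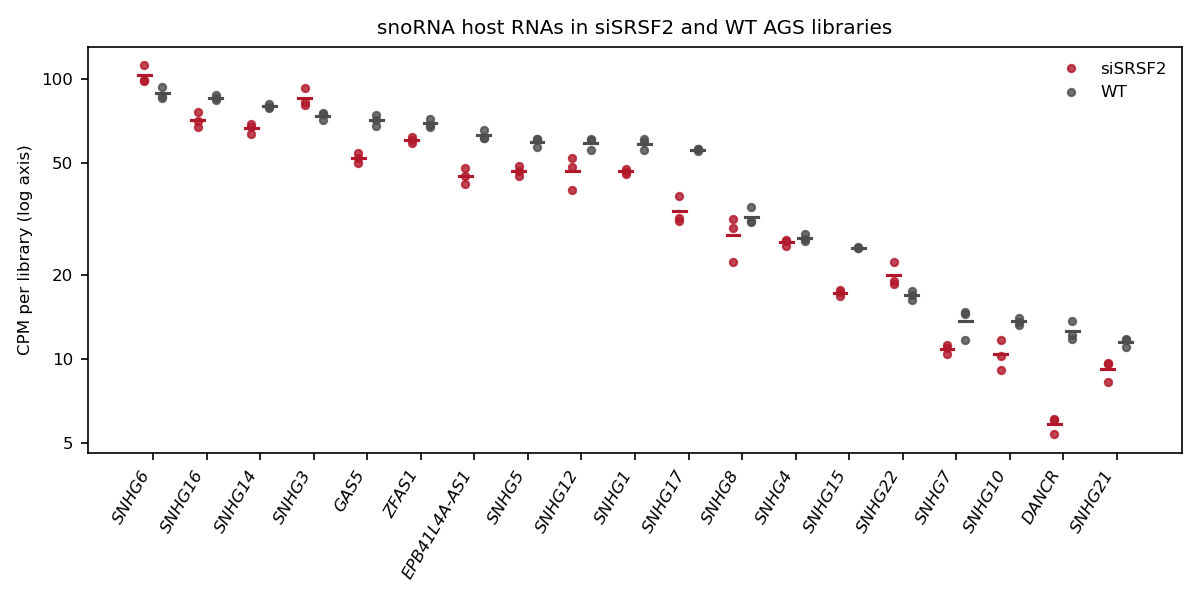
Level in CPM (log axis) of the 19 members with at least 10 CPM in either group, each library as a point and each group mean as a line, siSRSF2 left of WT within each gene. The siSRSF2 points of DANCR lie at 5.37 to 6.10 CPM, below all WT points; those of SNHG6 and SNHG3 lie above theirs; those of SNHG8 and SNHG4 overlap.

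Of 8 tested box C/D hosts, 6 fell and 2 rose. GAS5 (chr1:173863900-173868882), which accumulates in growth-arrested cells and is a classic terminal oligopyrimidine host, had 50.2, 52.2 and 54.2 CPM in siSRSF2, against 74.2, 71.6 and 67.8 CPM in WT. The gap between the groups was wider than the spread within either, and the log2 fold change was -0.45 ± 0.05 (adjusted p = 4.13e-08). SNHG5 (chr6:85660950-85678736, host of the SNORD50 RNAs) had 48.7, 44.99 and 47.0 CPM in siSRSF2, against 61.1, 60.8 and 57.0 CPM in WT (log2 fold change -0.35 ± 0.05, adjusted p = 3.39e-06). SNHG1 (chr11:62851988-62855914), known as the U22 host gene for its long run of SNORD RNAs, had 45.9, 46.5 and 47.8 CPM in siSRSF2, against 59.7, 60.8 and 55.8 CPM in WT (log2 fold change -0.33 ± 0.05, adjusted p = 6.52e-06). Every snoRNA location found inside SNHG1 overlaps an exon, so its row may include snoRNA reads. SNORD26 had 186, 249 and 173 counts in siSRSF2 and 375, 359 and 356 in WT. SNORD22, whose row pools several places, had 236, 310 and 386 against 487, 501 and 490. The SNHG1 row had 1248, 1792 and 1656 against 2844, 2776 and 2646. The part of such reads in its fall was not tested.

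SNHG16 (chr17:76557766-76565348, host of the SNORD1 RNAs) had 70.9, 67.6 and 76.1 CPM in siSRSF2, against 84.2, 87.3 and 85.1 CPM in WT (log2 fold change -0.26 ± 0.05, adjusted p = 8.44e-05). ZFAS1 (chr20:49278178-49295738), host of the SNORD12 RNAs, had 60.6, 59.0 and 61.9 CPM in siSRSF2, against 68.7, 67.5 and 71.8 CPM in WT. Its groups did not overlap, yet its fall was the smallest called, at -0.20 ± 0.05 on the log2 scale (adjusted p = 0.00137), and did not pass with library totals (adjusted p = 0.279). SNHG14 (chr15:24978583-25419462) is the imprinted transcript of the Prader-Willi region, holding the SNORD115 and SNORD116 clusters and running antisense to UBE3A. It had 63.4, 67.4 and 69.0 CPM in siSRSF2, against 79.6, 78.8 and 81.1 CPM in WT (log2 fold change -0.26 ± 0.05, adjusted p = 5.24e-05).

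The 2 box C/D hosts that rose were SNHG6 and SNHG19. SNHG6, host of SNORD87, had 112, 99.0 and 98.0 CPM in siSRSF2, against 93.7, 85.7 and 87.2 CPM in WT (log2 fold change 0.21 ± 0.05, adjusted p = 0.00138). The gap between the groups was small beside the distance of siSRSF2 replicate 1 from its group. SNHG19 (chr16:2154797-2155358, host of SNORD60), a short gene of 342 exon bases, had 6.81, 5.84 and 7.97 CPM in siSRSF2, against 3.99, 3.74 and 3.96 CPM in WT. That was the strongest rise among the members, at 0.82 ± 0.13 on the log2 scale (adjusted p = 6.25e-06). Its spread was wider in siSRSF2, with a coefficient of variation of 15.5%, than in WT, where it was 3.46%.

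Both mixed hosts fell. SNHG12 (chr1:28578538-28582983), with SNORA16A, SNORA44, SNORA61 and SNORD99, had 48.5, 40.1 and 52.0 CPM in siSRSF2, against 60.7, 61.1 and 55.7 CPM in WT (log2 fold change -0.34 ± 0.08, adjusted p = 0.00127). No siSRSF2 library reached the lowest WT library, although replicate 3 came near it. SNORA61, SNORA44 and SNORA16A overlap exons of SNHG12, so its row may include their reads. SNORA61 had 444, 471 and 620 counts in siSRSF2 and 995, 886 and 867 in WT. SNORA44, whose row pools several places, had 285, 303 and 443 against 484, 535 and 426. The SNHG12 row had 1318, 1547 and 1803 against 2891, 2792 and 2643. The part of such reads in its fall was not tested. SNHG25 was thinly counted, at 1.07 ± 0.26 CPM in siSRSF2 and 1.78 ± 0.18 CPM in WT (SD, n = 3 each). Its log2 fold change was -0.71 ± 0.23 (adjusted p = 0.0104, and 0.0627 without siSRSF2 replicate 1). SNORA50C overlaps an exon of SNHG25 and had 13, 17 and 18 counts in siSRSF2 and 47, 41 and 42 in WT. The SNHG25 row had 21, 46 and 43 counts in siSRSF2 and 94, 74 and 83 in WT. The part of SNORA50C reads in the fall of SNHG25 was not tested.

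Of the scaRNA hosts, 2 fell, 1 rose and 1 did not pass. SNHG10 (chr14:95532297-95534872, host of SCARNA13) had 10.3, 11.7 and 9.12 CPM in siSRSF2, against 13.5, 14.1 and 13.2 CPM in WT (log2 fold change -0.39 ± 0.09, adjusted p = 0.00082). SNHG21 (chr15:82750564-82757206, host of SCARNA15) had 9.64, 8.30 and 9.58 CPM in siSRSF2, against 11.8, 11.6 and 11.04 CPM in WT (log2 fold change -0.33 ± 0.09, adjusted p = 0.00394; 0.0792 with library totals). In both the groups were apart. SNHG22 (chr18:49814023-49851059, host of SCARNA17 and SCARNA18) had 22.2, 18.5 and 19.1 CPM in siSRSF2, against 16.2, 17.0 and 17.4 CPM in WT. Its siSRSF2 libraries lay above those of WT (log2 fold change 0.23 ± 0.08, adjusted p = 0.0122), most clearly replicate 1. SCARNA17 and SCARNA18 overlap exons of SNHG22, so most of its counts may be scaRNA reads, as given below. The call was lost without siSRSF2 replicate 1 (adjusted p = 0.0983), without WT replicate 1 (0.0687) and with no filter on low counts (0.121). SNHG20, at 6.11 ± 0.56 CPM in siSRSF2 and 7.31 ± 0.37 CPM in WT, did not overlap between groups but missed the threshold (log2 fold change -0.25 ± 0.11, adjusted p = 0.0555; 0.0333 without siSRSF2 replicate 3).

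The members not tested were SNHG9, SNHG18 and SNHG23, each below 0.32 CPM in every library. These are near the level of 3 counts, which is 0.0778 to 0.11 CPM in siSRSF2 libraries and 0.063 to 0.0657 CPM in WT libraries, so no difference was detectable at this depth. Counting all 23 tested members, 17 lay wholly below WT and 4 wholly above, against 31.2% and 32.5% of all tested genes, or 63.8% with no overlap in either direction. Set against a null of 1.2-fold in either direction, 7 members fell (DANCR, SNHG17, SNHG25, SNHG15, EPB41L4A-AS1, GAS5 and SNHG5) and 1 rose (SNHG19). Among all genes 20.9% fell and 23.5% rose by that test.

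Levels between genes were compared per kilobase of merged exon length. SNHG6 was highest in both groups, at 82.5 CPM per kb in siSRSF2 and 71.3 CPM per kb in WT, followed by SNHG8 (30.1 and 34.9) and ZFAS1 (27.0 and 30.9 CPM per kb, in the same order of groups). In siSRSF2 the levels of SNHG8 and ZFAS1 per kb were closer than the spread of SNHG8, whose coefficient of variation there was 17.6%. The level of SNHG8 may include reads of SNORA24, which overlaps an exon of that host. SNHG14 shows what length does to the order: it was the 3rd member by CPM in WT and the 22nd per kb, since its merged exons span 36573 bases. By contrast SNHG19, low by CPM, was 13th per kb in WT and 5th in siSRSF2, where its 20.1 CPM per kb stood between SNHG3 (20.9) and SNHG5 (16.8). The 26 members together made up 816, 777 and 809 CPM in siSRSF2 and 940, 934 and 922 CPM in WT, a sum of 801 ± 20.7 CPM against 932 ± 9.04 CPM (SD, n = 3 each).

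The rows of the snoRNAs inside these hosts were read next. Short RNAs are often poorly kept by an mRNA library, and reads in such a row can also come from host RNA that spans it, so the rows do not measure mature snoRNAs alone. Conversely, snoRNA reads can enter a host row where the snoRNA overlaps an exon. Some intronic rows were denser in WT than the exons of their host. SNORA73B had 263 CPM per kb, against 18.1 for SNHG3, and SNORA71D had 120, against 13.35 for SNHG17. Others were not, as SNORD12B had 11.85 CPM per kb, against 30.9 for ZFAS1. Of 151 rows with a single location inside a member, 36 were tested: by edgeR 9 were lower, 0 were higher and 27 did not pass. None was higher at an unadjusted p of 0.05 or by DESeq2 either (0 rows each), and DESeq2 called 8 lower; 1 row was called higher with library totals (SNORD116-9) and 1 without siSRSF2 replicate 2 (SNORD1C), both named after their values were seen. Rows called lower numbered 6 with library totals and 6 to 11 over all settings run. Of all 234 tested snoRNA rows, 23.1% were lower and 4.7% higher. The median log2 fold change was -0.24 in rows inside members and -0.24 in the 181 rows outside them.

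A further 21 rows inside members pool reads from several places in the genome, so that their reads cannot be assigned to the host. Of 17 tested, 7 were lower, 1 was higher and 9 did not pass. The row that was higher, SCARNA17 in SNHG22, had 17.96, 14.6 and 14.9 CPM in siSRSF2, against 12.2, 13.3 and 13.7 CPM in WT. The groups did not overlap, and the log2 fold change was 0.27 ± 0.09 (SE, adjusted p = 0.0106), beside 0.23 for SNHG22, which also rose. SCARNA17 overlaps an exon of SNHG22, so the same reads can stand in both rows. SCARNA17 had 488, 562 and 517 counts in siSRSF2 and 583, 608 and 649 in WT. SNHG22 had 603, 713 and 660 counts in siSRSF2 and 774, 775 and 827 in WT. SCARNA18, which also overlaps an exon of SNHG22, had 83, 128 and 100 counts in siSRSF2 and 114, 143 and 149 in WT. The scaRNA rows pool several places, but their counts together come close to those of SNHG22. Few reads of the SNHG22 row may therefore come from outside the scaRNAs. The changes of host and scaRNA are thus not separate observations, and the part of scaRNA reads in the host's rise was not tested. As for that host, the call of SCARNA17 was lost without siSRSF2 replicate 1 (adjusted p = 0.0974), without WT replicate 1 (0.0751) and with no filter on low counts (0.0737). SCARNA18 of the same host (0.10 ± 0.16) and SNORD60 in SNHG19 (-0.12 ± 0.33) did not pass.

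SNORD12C, in an intron of ZFAS1, had 5.30, 5.40 and 5.54 CPM in siSRSF2, against 7.91, 8.49 and 8.30 CPM in WT. Its log2 fold change was -0.60 ± 0.11 (adjusted p = 2.56e-05), beside -0.20 for its host, and the difference between the pair was not tested. SNORA71A, in an intron of SNHG17, had 3.02, 3.92 and 5.25 CPM in siSRSF2, against 6.61, 6.61 and 6.55 CPM in WT (log2 fold change -0.68 ± 0.15). Another SNORA71 of that host, SNORA71D, had 16.6, 12.01 and 19.2 CPM in siSRSF2, against 15.7, 17.7 and 15.0 CPM in WT (log2 fold change -0.02 ± 0.15, adjusted p = 0.916). The SNORA71 genes resemble each other, and the labels do not say how reads that fit several of them were counted.

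Of the other printed snoRNAs, SNORA61 in SNHG12 had a log2 fold change of -0.34 ± 0.11, SNORA17A in SNHG7 one of -0.55 ± 0.16 and SNORD50B in SNHG5 one of -0.99 ± 0.35 at under 1 CPM, and each overlaps an exon of its host. SNORA61 lost its call without siSRSF2 replicate 2 (adjusted p = 0.0585) or WT replicate 1 (0.0605) and with library totals (0.117), and SNORD50B without siSRSF2 replicate 1 (0.0555), siSRSF2 replicate 3 (0.0809) or WT replicate 2 (0.0588). SNORD108 in SNHG14 was lower (-0.65 ± 0.14), whereas SNORD116-18 of the same host, with 3.79, 2.83 and 2.83 CPM in siSRSF2 against 2.54, 2.58 and 2.85 CPM in WT, did not pass (0.23 ± 0.17). SNORA74A in SNHG4 passed with -0.37 ± 0.16 (adjusted p = 0.0475), with overlapping libraries, while its host did not. Leaving out any library but siSRSF2 replicate 3 ended that call, with adjusted p-values of 0.0616 to 0.317. The call was also lost with library totals (0.203), with DESeq2 (0.0652) and with a mean CPM of at least 1 (0.0779). In SNHG3, which rose, SNORA73B had 52.7, 36.7 and 56.5 CPM in siSRSF2, against 53.3, 58.9 and 48.7 CPM in WT, and did not pass (-0.15 ± 0.19). That row varied more in siSRSF2, where replicate 2 was lowest, than in WT.

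**Figure D4:**
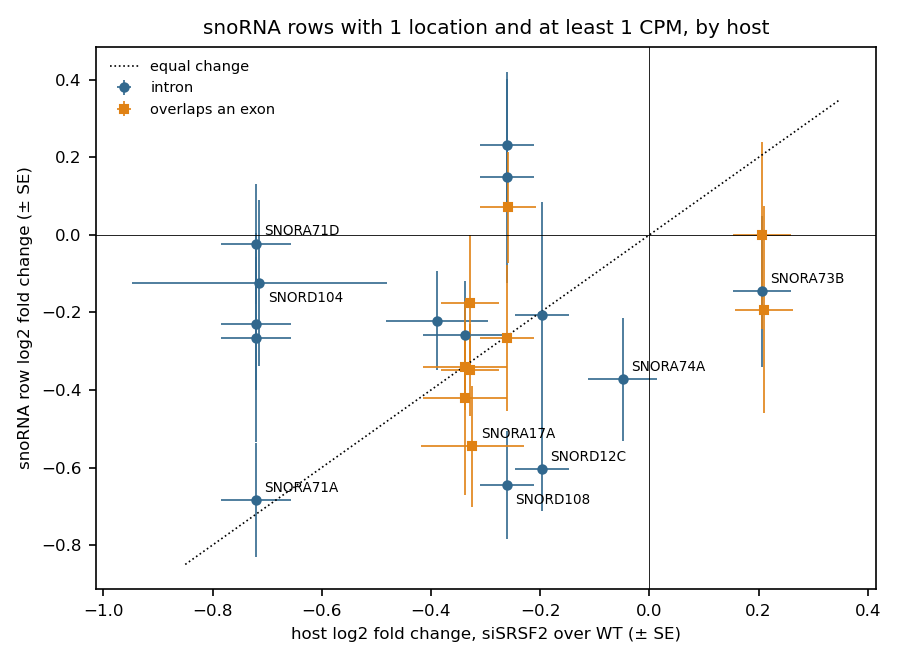
Log2 fold change, siSRSF2 over WT, of tested snoRNA rows with a single location and at least 1 CPM in either group mean (vertical axis) against that of their host (horizontal axis), with SE bars; circles are intronic rows, squares overlap a host exon, and rows of 1 host share a horizontal position. The SNORA71 rows of SNHG17 spread from -0.68 to -0.02 over a host at -0.72, and the 3 rows plotted for SNHG3 and SNHG6, which rose, lie at or below 0; SNHG19 and SNHG22, which also rose, have no row with a single location.

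The genes for the proteins that turn these introns into particles were mostly lower. Of 23 genes in 4 lists, 21 fell, 1 rose and 1 did not pass, with a median log2 fold change of -0.84. The background was 29% lower among all genes tested. Among genes with a mean of at least 5 CPM, a level that all 23 reached, it was 46.8%. All 4 box C/D core proteins were lower. NOP56, a scaffold of the box C/D particle, had 190, 174 and 189 CPM in siSRSF2, against 488, 488 and 484 CPM in WT (log2 fold change -1.40 ± 0.05, adjusted p = 4.12e-19). Its partner NOP58 followed (-1.25 ± 0.05), as did SNU13, which binds the kink-turn of the RNA (-0.80 ± 0.06). FBL, the methyltransferase, fell little and with overlapping libraries: 216, 176 and 182 CPM in siSRSF2, against 212, 214 and 217 CPM in WT (-0.17 ± 0.06, adjusted p = 0.0226). Its call was lost without siSRSF2 replicate 2 (0.0935), siSRSF2 replicate 3 (0.0704) or WT replicate 3 (0.0617), and with library totals (-0.04).

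All 4 box H/ACA core proteins were lower as well. DKC1, the pseudouridine synthase, had 210, 199 and 206 CPM in siSRSF2, against 404, 415 and 404 CPM in WT (log2 fold change -0.99 ± 0.04, adjusted p = 1.47e-16). GAR1 fell by 1.33 on the log2 scale, NOP10 by 1.14 and NHP2 by 0.57. Among assembly factors 8 of 10 fell, including NUFIP1 (-1.35), RPAP3 (-1.04), RUVBL1 (-0.84) and C12orf45 (-0.71, now named NOPCHAP1), of which NUFIP1 bridges the box C/D proteins and RPAP3 and RUVBL1 belong to the R2TP chaperone machinery. PIH1D1, another R2TP subunit, rose, with 39.6, 35.6 and 37.7 CPM in siSRSF2 against 27.6, 27.2 and 32.0 CPM in WT (0.38 ± 0.07), and ZNHIT3 did not pass; both are named because they are the exceptions. All 5 processing genes fell: the debranching enzyme DBR1 (-0.85), the intron-binding helicase AQR (-0.53), the exosome nuclease EXOSC10 (-0.27), the deadenylase PARN (-0.27) and the poly(A) polymerase PAPD5 (-0.86).

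The other genes that hold snoRNA rows were nearly all protein coding. Of 205 tested, 101 (49.3%) fell, 45 (22%) rose and 59 did not pass, with a median log2 fold change of -0.16, against 29% lower and 30.1% higher over all genes tested. At a mean of at least 5 CPM, 53.2% of 186 such hosts were lower and 21% higher, against 46.8% and 30.8% of all genes at that level, so the share that fell was near the background. With library totals 83 fell and 64 rose. ODC1, the first enzyme of polyamine synthesis, had 54.4, 53.4 and 61.4 CPM in siSRSF2, against 268, 273 and 268 CPM in WT (-2.26 ± 0.05). The chaperone HSPA8 (-1.73) and the ribosome-assembly factor NOL11 (-1.44) were the next lowest by the rule used. The 3 largest rises were those of the calcium pump ATP2B4 (1.28), the potassium channel KCNC4 (1.13) and the ubiquitin ligase MIB1 (0.86).

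Of the 26 members, 24 share exon bases with another row of the table, snoRNA rows included. Neither the strandedness of the counting nor its treatment of shared reads is stated, so reads from overlapping genes cannot be told apart. The counts show that reads shared on the same strand were counted in each row. SNORA50C lies within a location of SNORA50 and had 13, 17 and 18 counts in siSRSF2, where SNORA50 had 13, 17 and 21. In WT they had 47, 41 and 42, and 48, 43 and 42. Host rows can therefore hold reads of snoRNAs and neighbours that overlap their exons. The neighbours' values are therefore set beside those of the hosts. Of 22 neighbours of the fully described members given here 21 were tested, and 14 fell (66.7%), 2 rose and 5 did not pass, against 46.8% lower among all genes at a mean of 5 CPM or more and 29% among all genes tested. With library totals 10 of the neighbours fell. Some neighbours share exon bases on the host's own strand, such as the ZNFX1-AS1 rows in ZFAS1 and RP11-701H24.9 in SNHG14. Such rows can hold the same reads as the host. The share of neighbours that fell is thus not separate from that of the hosts. EPB41L4A, which covers 49.6% of the exon bases of EPB41L4A-AS1 on the opposite strand, had 39.5, 36.3 and 34.2 CPM in siSRSF2, against 51.2, 51.0 and 54.2 CPM in WT (log2 fold change -0.51, beside -0.48 for the host). Reads of one may therefore be counted in the other, and their part in either change was not tested.

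RCC1, which regulates the Ran GTPase, lies on the strand of SNHG3 and shares 242 bases with it, 5.92% of its exons. It had 157, 137 and 144 CPM in siSRSF2, against 209, 217 and 219 CPM in WT, a log2 fold change of -0.56 ± 0.05 where SNHG3 had 0.21. SLC3A2, the heavy chain of amino acid transporters, starts within 1 kb of SNHG1 on the opposite strand and had 85.3, 84.9 and 86.6 CPM in siSRSF2, against 220, 211 and 217 CPM in WT. That was -1.33 ± 0.05, against -0.33 for SNHG1. Divergent from GAS5, ZBTB37 did not pass (-0.04 ± 0.07), while GAS5-AS1, which shares 42 bases with GAS5, had 2.50, 2.54 and 2.74 CPM in siSRSF2, against 6.28, 5.73 and 5.10 CPM in WT (-1.13 ± 0.14).

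The remaining neighbours are given by host. UBE3A, the ubiquitin ligase antisense to SNHG14, fell by 0.69 on the log2 scale, as the values of this paragraph are. SNRPN, on the same strand, fell by 0.17 with an adjusted p of 0.0427, lost with DESeq2 (0.0553) and without siSRSF2 replicate 1 or 2 or WT replicate 2 or 3 (0.0764 to 0.165). RP11-701H24.9, also inside SNHG14, fell by 0.24. With library totals the calls of SNRPN (adjusted p = 0.657), RP11-701H24.9 (0.147), ZNFX1-AS1_2 (0.696) and MCMDC2 (0.208) were lost; the last pair is described next. ZNFX1, antisense to ZFAS1, fell by 0.72. Of 3 rows named ZNFX1-AS1 inside ZFAS1, ZNFX1-AS1_1 had 2, 4 and 2 counts in siSRSF2 and 37, 31 and 40 counts in WT (-3.22 ± 0.49), ZNFX1-AS1_2 had -0.16 (adjusted p = 0.033, lost without siSRSF2 replicate 1 or 2 or WT replicate 1 or 3, at 0.067 to 0.201) and ZNFX1-AS1_3 did not pass (-0.05). MATR3, a nuclear matrix protein, lies on the strand of SNHG4 and shares 555 bases with it, 28.8% of the exon bases of SNHG4. MATR3 fell by 0.24 where SNHG4 did not pass. In WT its row had 55.04 CPM per kb, against 14.02 for SNHG4. Much of the SNHG4 row may therefore be MATR3 reads, and their part was not tested. MCMDC2, antisense to SNHG6, fell by 0.28 where SNHG6 rose, with its call lost without WT replicate 1 (adjusted p = 0.0588). GLRX5, antisense to SNHG10, fell by 0.48 and FSD2, antisense to SNHG21, by 0.60. TRNAU1AP, which meets SNHG12 over 8 bases, rose by 0.22 (adjusted p = 0.0329), a call lost with DESeq2 (0.0711) and without any library but siSRSF2 replicate 1 (0.0543 to 0.188). RP11-666A8.8, divergent from SNHG16, rose by 2.04 at 1.78 CPM in siSRSF2 and 0.42 CPM in WT. RP11-177B4.1, antisense to DANCR, was too low to test, and MYO5B and ACAA2 beside SNHG22 and FAM69B beside SNHG7 did not pass. Outside the rule for neighbours, TRAF7, divergent from SNHG19 and chosen after its values were seen, had 76.2, 78.9 and 79.6 CPM in siSRSF2, against 53.5, 51.9 and 57.8 CPM in WT (0.53 ± 0.05), so both genes of that pair rose. SEC14L1, likewise chosen, rose by 0.46 while SNHG20, with which it shares 572 bases on the same strand, had -0.25 and did not pass. Neighbours of SNHG9, SNHG18 and SNHG23, which were too low to test, are not described.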

How the data were processed

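Per the labels' protocols, TRI Reagent was used to isolate RNA of AGS cells, and libraries were built with the SMARTER mRNA-Seq kit. The authors deposited 1 table of raw read counts per gene for the 6 libraries; HISAT2 2.0.5 and featureCounts 1.5.0-p3 are named in the submitters' processing notes. Those notes also name build mm10, but the table holds human genes, and of 36027 names found once in GENCODE 29 (GRCh38) 98.2% lay at an overlapping position, as did 25 of the 26 members (SNHG23 was not found by name). Table coordinates are therefore given as GRCh38. The labels do not give the strand setting or the handling of reads shared between genes.

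From the deposited counts, CPM values were computed with TMM factors, and siSRSF2 was set against WT with edgeR 4.0.16 (R 4.3.3; quasi-likelihood test, robust, filterByExpr with a minimum count of 10; group as the only term). Benjamini-Hochberg adjustment ran over all 23689 genes tested, which hold 99.9% of the counts; the threshold was 0.05. A log2 fold change is siSRSF2 over WT; its SE is the estimate divided by the square root of F. The common biological coefficient of variation was 6.27%. The fit was first tested on simulated data. Alternatives were RLE factors, library totals, DESeq2 1.42.0, no filter, a mean CPM of at least 1, no mitochondrial genes, a replicate block, a null of 1.2-fold, and omission of each library.

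Members with at least 10 CPM in either group, or called with a 2-fold change at 1 CPM or more in the higher group, were described with every library; the others by count and range, apart from SNHG11, SNHG19, SNHG20 and SNHG25, whose values were given after they were seen. Up to 4 genes with the smallest p were named per list (all 5 for processing), and from the other hosts 3 rises and 3 falls at 10 CPM or more. Members and lists were chosen with earlier results of these data known. Neighbours were described for members given with every library, with 1 such gene not reported here.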

Additional observations from a re-analysis of the deposited data

How the results depend on the processing

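Over RLE factors, library totals, DESeq2, no filter, a mean CPM of at least 1, omission of mitochondrial genes and the replicate block, the count of members that fell ranged from 12 (library totals) to 18 (no filter), beside 16. With 1 library left out it ranged from 14 to 17, and the count that rose from 3 to 4. Against a null of 1.2-fold, 7 members fell and 1 rose, 25 other host genes rose in place of 45, and 3 processing genes fell in place of 5. snoRNA rows called higher numbered 1 with library totals and 0 to 1 with 1 library left out, beside 0; those called lower numbered 6 to 11 over all settings, beside 9. No called member changed sign in any setting run: DANCR stayed between -1.17 and -0.97, SNHG17 between -0.83 and -0.59, and SNHG19 between 0.68 and 0.95 on the log2 scale. SNHG21 (adjusted p = 0.0792), SNHG7 (0.0873), ZFAS1 (0.279) and SNHG11 (0.0985) were lost with library totals; SNHG25 and SNHG22 without siSRSF2 replicate 1, SNHG22 also without WT replicate 1; SNHG8 was gained with DESeq2, and SNHG20 with RLE factors. The cause was not tested.

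Of rows and genes that had not passed, these changed sign. With library totals SNHG4 was 0.082, ZBTB37 0.091, ZNFX1-AS1_3 0.078, FAM69B 0.026, SNORA71D 0.108, ZNHIT3 0.030, LRRC75A-AS1 0.069 and C6orf48 0.071, and with a mean CPM of at least 1 SNHG4 was 0.002, ZBTB37 0.013 and SNORA71D 0.027. With 1 library left out, ZBTB37 ranged from -0.105 to 0.027, FAM69B from -0.285 to 0.168, SNORA71D from -0.195 to 0.149, SNORA73B from -0.283 to 0.022 and C6orf48 from -0.121 to 0.038.

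Replicate numbers did not pair the libraries: correlations of same-numbered deviations were 0.0133, -0.0472 and -0.0457. With the replicate block 16 members fell and 4 rose. Depth limits SNHG9, SNHG18 and SNHG23, which were not tested, and the snoRNA rows, of which 36 of 151 were.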

Other observations

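Some host genes stand in the table under older symbols and were therefore outside the name rule. LINC00152, now CYTOR, had 16.2, 17.1 and 18.4 CPM in siSRSF2, against 21.6, 23.0 and 19.96 CPM in WT (log2 fold change -0.32 ± 0.08, adjusted p = 0.00068). LRRC75A-AS1, now SNHG29, had 47.4, 53.2 and 50.2 CPM in siSRSF2, against 52.1, 52.8 and 52.6 CPM in WT, and did not pass (-0.06 ± 0.05). C6orf48, now SNHG32, did not pass either (-0.06 ± 0.09). LINC00888, now SNHG33, rose, with 5.23, 4.65 and 4.21 CPM in siSRSF2, against 3.48, 3.72 and 3.71 CPM in WT (0.36 ± 0.14, adjusted p = 0.0264), a call lost with DESeq2 (0.0559) and without siSRSF2 replicate 1 (0.11), WT replicate 1 (0.0894), WT replicate 2 (0.0557) or WT replicate 3 (0.0568). C1orf204, now SNHG28, stayed below 1 CPM in every library and did not pass, except without siSRSF2 replicate 3 (log2 fold change 1.25, adjusted p = 0.0291) or with library totals.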
